A study of Mus musculus with 18 samples.

Results

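The comparison described here set 3 ventricles of Het-CKO mice against 3 of CTL mice at 3 weeks of age, 6 of the 18 arrays of a study of perinatal Cops8 loss in the mouse heart. Samples were taken by their titles, 1 heart on 1 array each. CTL mice were Csn8flox/flox::Myh6-CreNTG, with both floxed Cops8 alleles and no Cre. Het-CKO littermates were Csn8flox/+::Myh6-CreTG, with 1 floxed allele, 1 wild-type allele and a Cre transgene under the Myh6 promoter, which is active in cardiomyocytes. All were of the FVB/N strain, and the flox sites enclose exons 4 to 6 of Cops8. The groups therefore differed in the Cre transgene and in 1 Cops8 allele at once, and these cannot be told apart. Hom-CKO hearts (Csn8flox/flox::Myh6-CreTG) and the 2-week hearts of the same genotypes, which are other animals, shared the normalization and the fit. The 2-week hearts also give a second comparison of Het-CKO with CTL, and Hom-CKO values are given beside single genes.

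Cops8 encodes the smallest subunit of the COP9 signalosome, a complex that removes the ubiquitin-like protein NEDD8 from cullins. Cullins are the scaffolds of the largest family of ubiquitin ligases, and cycles of neddylation and deneddylation let them exchange substrate receptors such as F-box, SOCS-box and BTB-Kelch proteins. In cardiac muscle the complex is known for its part in protein degradation by the proteasome and in the maturation of autophagosomes.

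Expression was read as the level of a probe: background-subtracted spot intensity, quantile normalized over all arrays and scaled so that the median probe reads 1. Values below 0.318 were set to 0.318, the floor, where they have no order. Of 26593 probes tested, 157 passed an adjusted p of 0.05 in limma's moderated test (Benjamini-Hochberg), which is 0.590% of the probes. Of these, 67 were higher in Het-CKO (0.252%) and 90 were lower (0.338%). The differences were small. Rises had a median size of 0.69 and falls one of 0.60 on the log2 scale, and 5 of the 157 probes reached a 2-fold difference, a log2 change of 1. Called probes were mostly dim, with a median level of 1.14 among the rises and 1.07 among the falls, against 1.88 over all tested probes, and 99 of the 157 were above background on all 6 arrays. The arrays of the 2 groups did not overlap for any of the 157, a property shared by 16.0% of all tested probes.

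**Figure D1:**
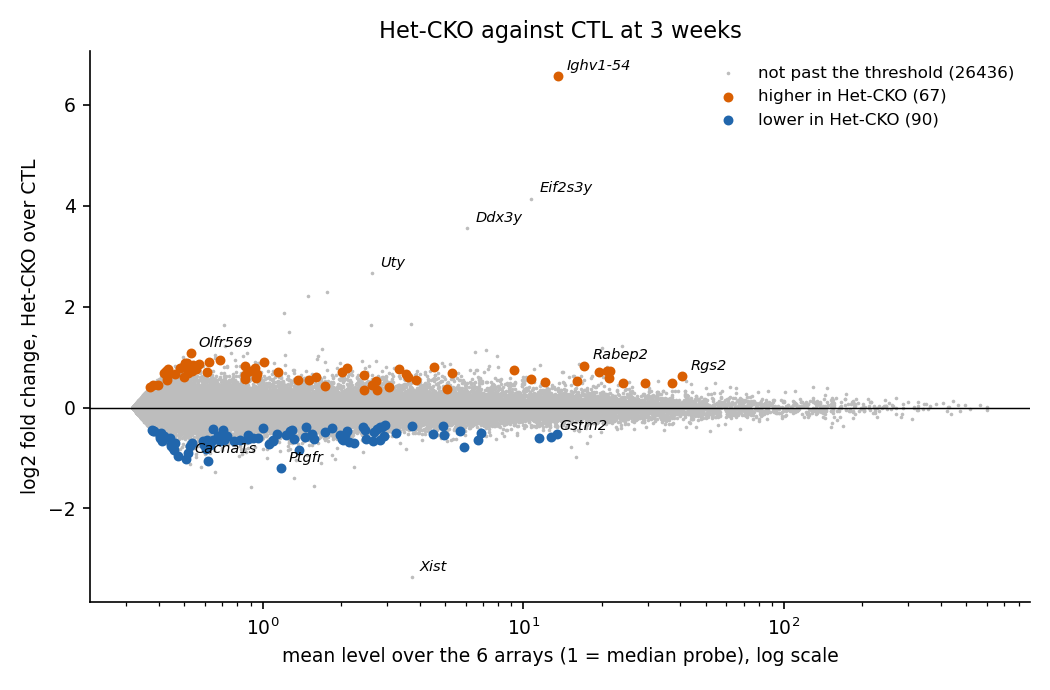
Log2 fold change of Het-CKO over CTL at 3 weeks (vertical axis) against the mean level over the 6 arrays (horizontal axis, log scale, 1 = median probe), with a point per tested probe. The 67 higher probes are orange and the 90 lower ones blue, the probe of Ighv1-54 stands alone at 6.58, and the sex-linked genes Eif2s3y, Ddx3y, Uty and Xist lie far from 0 without passing the test.

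The number of called probes rested on single hearts and on the spread taken from the other groups. It was 786 without CTL replicate 3 and 457 without Het-CKO replicate 2, but 34 without CTL replicate 2, 29 without Het-CKO replicate 1 and 20 without Het-CKO replicate 3. With only the 9 arrays of 3-week hearts it was 2 (Ighv1-54 and Ptgfr), and with the median raw brightness of the array as a covariate it was 1 (Ighv1-54). The split of calls depended on the scaling as well, with 300 higher and 1560 lower after median scaling, 285 and 1041 in the series value table, and 130 and 91 after cyclic loess. Median scaling also shifted the median log2 change of all probes from -0.01 to -0.10.

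The Het-CKO arrays were brighter, and the sexes of the hearts were not matched. Median raw intensity ran from 32.3 to 36.8 on the Het-CKO arrays and from 26.2 to 31.0 on the CTL arrays. Spots near background made up 28% to 29.7% of the former and 30.9% to 35.6% of the latter. Xist, the RNA that coats the inactive X chromosome of females, was at 9.97 and 11.1 in CTL replicates 1 and 3 and at the floor in CTL replicate 2 and in all 3 Het-CKO hearts. Ddx3y, a Y-linked RNA helicase gene, showed the reverse, with 10.4, 9.39 and 10.2 in Het-CKO, 5.95 in CTL replicate 2 and the floor in the other two controls. By these genes all 3 Het-CKO hearts were male and CTL held 1 male and 2 females. With Xist as a covariate 200 probes were called, 90 of them among the 157. Array correlations did not sort all hearts by genotype either: CTL replicate 3 matched Het-CKO replicate 2 at 0.992, while the CTL arrays matched each other at 0.982 to 0.986. The Het-CKO arrays matched each other at 0.984 to 0.994, and their replicates 1 and 3 were the closest pair of all.

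The largest difference was a rise at the probe annotated as Ighv1-54, an immunoglobulin heavy chain variable segment. No probe sequence was used here, so whether it detects this segment or another transcript could not be checked. It read 39.9 and 27.2 in Het-CKO replicates 1 and 3, while the spot of replicate 2 carried a quality flag and was left out. In CTL it read 0.318, 0.335 and 0.385, at or next to the floor. The log2 change was 6.58 ± 0.23 (SE, n = 2 against 3, limma adjusted p = 8.62e-10). CTL was above background on 1 array, so that the size of the change rests on the floor and on the background correction, and with normexp, a model-based background correction, it was 4.43. The groups did not overlap, and with the left-out spot kept the change was 6.57. It was 6.46 with the brightness covariate and 6.50 with the Xist covariate, and passed in both. At 2 weeks the probe read 19.7, 28.4 and 20.9 in Het-CKO hearts and 0.318, 0.531 and 0.344 in CTL hearts. In Hom-CKO hearts at 3 weeks, compared with the same controls, it read 30.6, 41.0 and 42.4. High values were thus found on all arrays of hearts with the Cre transgene that gave a value, with 1 or both Cops8 alleles floxed, and on none of the controls.

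Other immunoglobulin segments did not follow. Of the 72 other probes for heavy and light chain segments, 43 were near background on all 6 arrays and 31 could be tested. None was called by limma (4 at an unadjusted p under 0.05), their log2 changes ran from -0.91 to 0.35 with a median of -0.01, and the lowest adjusted p was 0.0875. Markers of B and plasma cells gave no call either, with a median of -0.14 over 6 tested genes and a summed level of 27.2 to 28.5 in CTL and 26.6 to 28.3 in Het-CKO. Cd79a, a part of the B cell receptor, read 7.49, 7.25 and 8.84 in CTL and 7.31, 8.73 and 7.99 in Het-CKO.

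**Figure D2:**
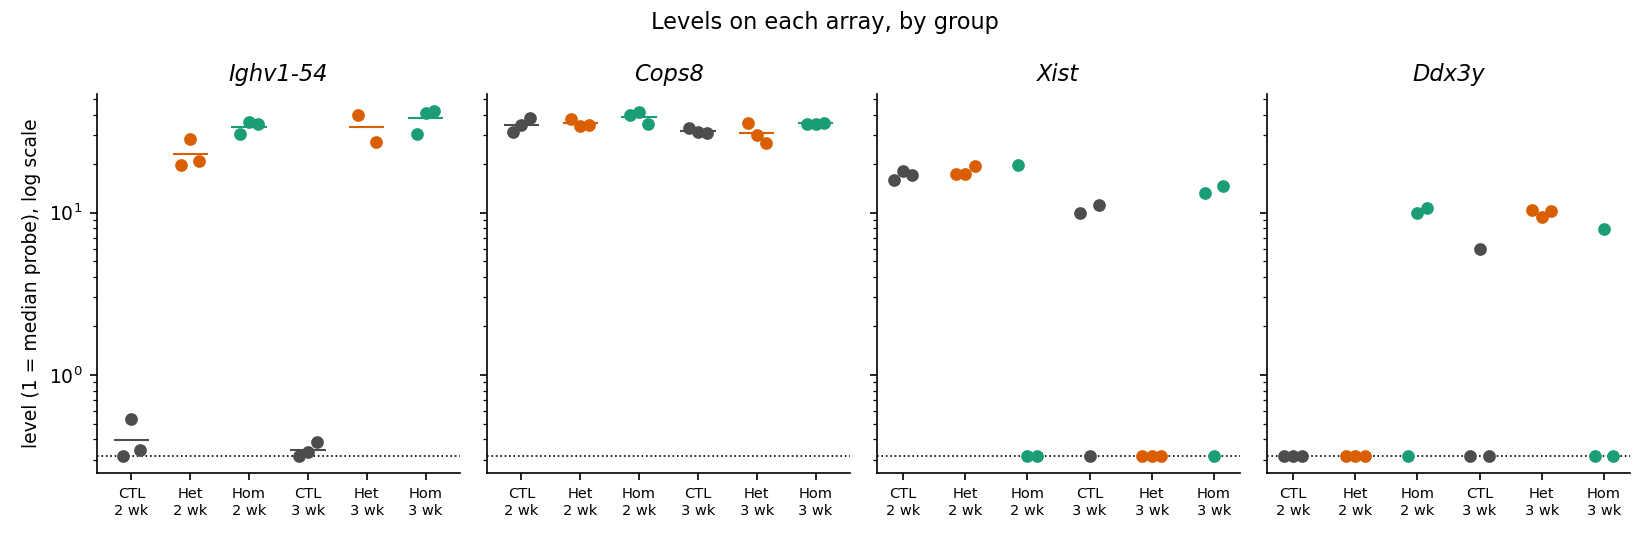
Level of 4 probes (vertical axis, log scale, 1 = median probe) on each array, with 3 arrays in each of the 6 groups and the floor as a dotted line. Horizontal bars are group means in the panels of Ighv1-54 and Cops8. Ighv1-54 was high in Het-CKO and Hom-CKO hearts at both ages and near the floor in CTL, Cops8 lay between 26.9 and 35.4 in the 6 hearts compared here, and Xist and Ddx3y separated the hearts by sex.

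Cops8 itself and the other signalosome subunits were read at levels that did not pass the test. The brighter Cops8 probe read 33.0, 31.3 and 30.8 in CTL and 35.4, 30.2 and 26.9 in Het-CKO, a log2 change of -0.05 with a 95% interval of -0.26 to 0.17 (limma adjusted p = 0.871). The dimmer one read 26.4, 28.5 and 23.7 in CTL and 25.0, 24.3 and 21.4 in Het-CKO, a change of -0.15 with an interval of -0.35 to 0.04 (limma adjusted p = 0.439). The groups overlapped at both. After median scaling the changes were -0.34 (adjusted p = 0.0641) and, past the threshold, -0.42 (adjusted p = 0.041). Where these probes lie against exons 4 to 6 is not given in the sources used here, and the RNA came from all cells of the ventricle, so the probes are no check of the deletion.

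Among the 9 subunit genes tested, 0 were called by limma in either direction (1 at an unadjusted p under 0.05) and the median change was -0.02, against -0.01 over all tested probes. Cops6, a subunit that pairs with the catalytic one, had non-overlapping groups, at 34.0, 33.8 and 33.3 in CTL and 37.8, 37.2 and 38.8 in Het-CKO (adjusted p = 0.293). Cops5, the catalytic subunit that cleaves NEDD8 from cullins, read 14.0, 16.1 and 14.5 in CTL and 13.7, 15.6 and 12.6 in Het-CKO (adjusted p = 0.792). Gps1, which encodes subunit 1, had a log2 change of -0.19 and an interval of -0.39 to 0.00. After median scaling all 9 genes lay below 0, Cops6 among them, with a median of -0.28 against -0.10 over all probes, and Gps1 passed at -0.39 (adjusted p = 0.0434). In the series value table all 9 were also below 0 (median -0.25).

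The machinery that the signalosome acts on gave few calls. None of the 16 cullin and ligase core genes passed (median 0.06), nor any of the 10 neddylation genes (median 0.04), the 59 F-box receptors (median -0.0036) or the 41 BTB-Kelch receptors (median -0.02). At an unadjusted p under 0.05 in limma stood 2, 0, 7 and 5 genes of these lists, against 16.5% of all tested probes. Among the core genes Cul4b, an X-linked cullin, came nearest to the threshold, at 1.18, 0.872 and 1.00 in CTL and 0.782, 0.773 and 0.798 in Het-CKO (limma adjusted p = 0.0859). Among these F-box and BTB-Kelch receptors, the lowest limma adjusted p were 0.0617 for Kbtbd4 (log2 change -0.37) and 0.0858 for Fbxl7 (-0.33). Vhl, a SOCS-box receptor, was not called either (-0.38, adjusted p = 0.0772). Fbxo31, an F-box receptor, read 12, 11 and 10.8 in CTL and 10.9, 9.58 and 12.9 in Het-CKO (adjusted p = 0.939).

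A call was made among the SOCS-box receptors, adaptors that bring substrates to cullin 2 and cullin 5 ligases. Of 29 tested, 1 fell and none rose at the brightest probe of each gene, against 0.338% lower over all probes. The list median was -0.12, 9 genes had an unadjusted p under 0.05, and for a second gene a dimmer probe fell. None of the 29 was called with the replicate block, the brightness covariate, the 3-week arrays alone, the 6 arrays alone or the methods' t-test. The same was true without Het-CKO replicate 1 or 3 and without CTL replicate 1 or 2. In the other settings at least 1 was called lower, and 4 were after median scaling. Asb14, an ankyrin repeat member of muscle, read 15, 15.4 and 17.2 in CTL and 11.3, 11.9 and 10.1 in Het-CKO, 1.43-fold lower (limma adjusted p = 0.0428). Its Hom-CKO hearts read 6.18, 7.66 and 6.49, so that the 3 genotypes took separate ranges. Spsb2, whose product targets inducible nitric oxide synthase, fell from 0.777, 0.835 and 0.908 to 0.519, 0.562 and 0.506 at its dimmer probe (adjusted p = 0.0411). Det1, a part of a cullin 4 substrate receptor chosen after its values were seen, read 3.57, 3.00 and 3.03 in CTL and 2.37, 2.46 and 2.52 in Het-CKO, a log2 change of -0.38 (adjusted p = 0.0472).

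Downstream systems of protein turnover showed no call. Of 39 proteasome subunits 0 passed in limma (2 at an unadjusted p under 0.05), with 6 above 0 and a median of -0.10. After median scaling all 39 lay below 0 (median -0.41) and 11 were called lower. Of 40 autophagy genes 0 passed (2 unadjusted, median -0.06), with Map1lc3a, an LC3 protein of the autophagosome membrane, at 158, 165 and 170 in CTL and 192, 152 and 160 in Het-CKO. Sqstm1, the receptor that carries ubiquitinated cargo to autophagosomes, read 70.5, 70.4 and 65.5 in CTL and 64.6, 56.1 and 65.8 in Het-CKO (adjusted p = 0.433). Atg16l2, outside that list and chosen after its values were seen, fell from 0.730, 0.836 and 0.847 to 0.587, 0.526 and 0.529 (adjusted p = 0.0345). None of 51 vesicle trafficking genes passed (8 unadjusted, median -0.06), while over the alternatives the median reached -0.30 and up to 12 genes were called lower. For the autophagy list these were -0.27 and 7.

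**Figure D3:**
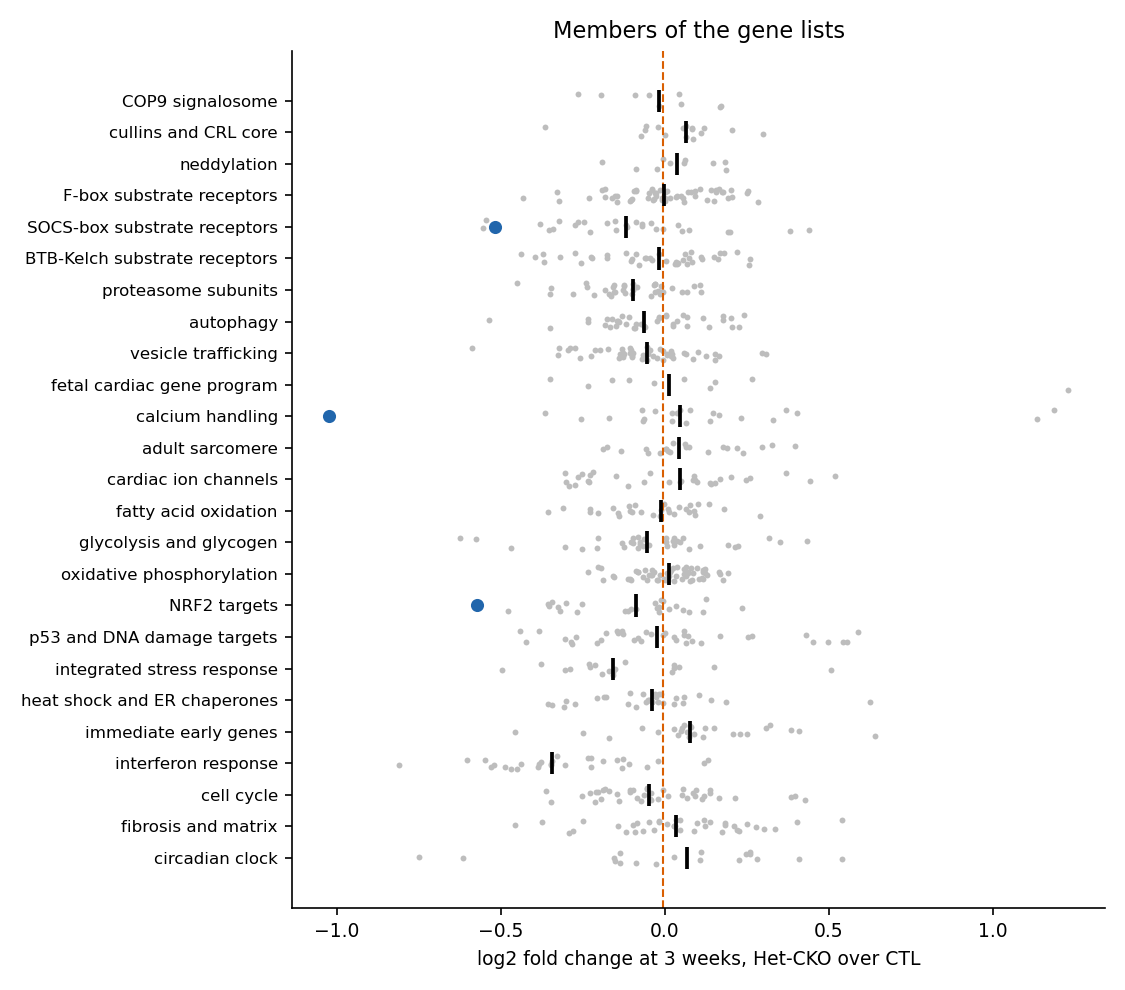
Log2 fold change of Het-CKO over CTL at 3 weeks (horizontal axis) for the members of 25 gene lists, each gene at its brightest probe. Grey points did not pass the test, blue points fell (Asb14, Cacna1s and Gstm2), black bars are list medians and the dashed line is the median of all tested probes, -0.01. The interferon list lies farthest from that line, with a median of -0.34.

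Cardiac genes of contraction, calcium and failure did not separate the groups. None of the 10 genes of the fetal program, which returns in failing hearts, was called by limma or stood at an unadjusted p under 0.05 (median 0.01). Nppa, the atrial natriuretic peptide gene, read 26, 11.8 and 13.1 in CTL and 20.1, 13.3 and 20.6 in Het-CKO, and Nppb, its B-type relative, 72.8, 62.3 and 34.5 against 49.0, 38.3 and 59.3. Both pairs overlapped (limma adjusted p = 0.897 and 0.783). In Hom-CKO hearts Nppa stood at 245, 254 and 224 and Nppb at 197, 214 and 247.

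Acta1, skeletal actin, overlapped between the groups at 79.1, 81.3 and 33.5 against 71.9, 49.8 and 79.8, and so did Myh7, the slow myosin heavy chain, at 1.06, 0.643 and 0.889 against 0.467 and 1.32 (1 spot left out). Pln, phospholamban, which restrains the calcium pump, was at 372, 343 and 321 in CTL and 349, 303 and 362 in Het-CKO. The pump gene Atp2a2 read 485 in each CTL heart and 485, 431 and 471 in Het-CKO. Actc1, cardiac actin, read 555 to 625 and was saturated on 13 of the 18 arrays of the series. No probe was saturated on CTL replicate 1 or on Het-CKO replicates 2 and 3. Its values can thus be lower bounds only on the other arrays compared here. Tpm1, tropomyosin 1, lay at 138 to 174 in CTL and 155 to 165 in Het-CKO. Of 22 sarcomere genes and 31 ion channel genes none was called (medians 0.04 and 0.05).

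The calcium list gave the 1 call of these groups, a fall. Cacna1s, the pore subunit of the skeletal muscle L-type calcium channel, read 0.895, 0.665 and 0.507 in CTL and 0.355, 0.318 and 0.318 in Het-CKO, where it was above background on 1 array. The log2 change was -1.02 ± 0.14 (SE, n = 3 per group, limma adjusted p = 0.00782). Its size rests on the floor, and it was -0.79 with the higher floor and -0.29 with normexp. In Hom-CKO the probe was at the floor on all 3 arrays. Ryr1, the skeletal muscle ryanodine receptor, moved the other way at an even lower level, from the floor on all CTL arrays to 0.442, 0.479 and 0.393, at least 1.20-fold higher (adjusted p = 0.0472, chosen after its values were seen). Rem1, a small GTPase that inhibits calcium channels, fell from 2.83, 3.28 and 3.34 to 2.24, 2.49 and 2.31 (adjusted p = 0.0345, chosen likewise).

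Cacna1s belongs with Ptgfr, Mylk2 and Ppp1r3g to 4 genes that the study singled out on these same samples, so they are not independent evidence. Ptgfr, the receptor of prostaglandin F2 alpha, had the largest fall. One probe read 1.45, 1.44 and 1.66 in CTL and 0.664 and 0.647 in Het-CKO, where replicate 2 was left out for a flag, a log2 change of -1.21 ± 0.22 (SE, limma adjusted p = 0.0345). In Hom-CKO it was at the floor on all 3 arrays. The gene's other probe read 1.72 and 1.44 in CTL (1 spot left out) and 1.28, 0.991 and 1.23 in Het-CKO and did not pass (log2 change -0.44, adjusted p = 0.119). Mylk2, skeletal myosin light chain kinase, was at the floor in all 6 hearts, as was Ppp1r3g, a glycogen-targeting phosphatase subunit. Cask, a membrane scaffold protein with a CTL spot left out, read 0.859 and 0.909 in CTL and 0.449, 0.318 and 0.543 in Het-CKO (log2 change -1.05, adjusted p = 0.0314, chosen after its values were seen). A second prostanoid receptor, Ptger2 for prostaglandin E2, fell from 0.630, 0.768 and 0.780 to 0.405, 0.438 and 0.528 (adjusted p = 0.0389, chosen after its values were seen).

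Beyond Ptgfr and Cacna1s, the 15 largest falls among genes read above background on all 3 CTL arrays, which leaves out Cask and Sphk1, held receptors, secreted proteins and immune genes at low levels. Pgrmc2, a haem-binding membrane protein, fell from 0.640, 0.690 and 0.545 to the floor or just above it (0.318, 0.327 and 0.319), above background on 1 Het-CKO array. Its log2 change was -0.95 (limma adjusted p = 0.00782), with a size that rests on the floor, and -0.26 with normexp. Spon2, an extracellular matrix protein and the brightest of the 15, read 6.91, 8.73 and 6.84 in CTL and 4.45, 4.74 and 3.83 in Het-CKO, 1.72-fold lower (adjusted p = 0.0372). Tmem171, a membrane protein, fell from 1.53, 2.03 and 1.73 to 1.15, 1.14 and 0.704, while Hom-CKO hearts read 10.9, 11.1 and 10.5, above both. The immune genes were Il16, a T cell chemoattractant (log2 change -0.70), Cd5l, which macrophages secrete (-0.80), Ciita, the master regulator of MHC class II genes (-0.71), and a T cell receptor beta joining segment, Tcrb-J (-0.75). Amhr2, Cttn, Sema3f, Kndc1, Dhh and Pnmal2 completed these 15 with changes of -0.90 to -0.70.

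At higher levels the called falls were fewer than the called rises after quantile normalization. Among the 6648 tested probes at a level of 5.792 or more, 14 were called higher and 6 lower. Of the calls with a mean level of at least 10 in a group, 14 were rises and 3 were falls. The tested probes at that level were not counted, so no share can be given for it. Neither split was computed after median scaling, where calls at all levels were 300 higher and 1560 lower. Gstm2, a glutathione transferase, was the 1 call among 27 tested targets of the oxidant sensor NRF2 (list median -0.09), at 15.5, 14.1 and 16.3 in CTL and 10.3, 11.8 and 8.91 in Het-CKO, 1.49-fold lower (limma adjusted p = 0.0389). Lrrc32, which anchors latent TGF-beta, fell from 8.24, 7.63 and 8.18 to 5.81, 6.16 and 5.14 (adjusted p = 0.0279), and Islr, a secreted stromal protein, from 8.34, 7.95 and 8.11 to 4.63, 6.73 and 4.6. Deptor, an inhibitor of mTOR, read 1.84, 1.84 and 1.76 in CTL and 1.26, 1.26 and 1.28 in Het-CKO, with very little spread in either group (adjusted p = 0.0345). Lrrc32, Islr and Deptor lay below a level of 10 and were chosen after their values were seen.

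The 15 largest rises among genes read above background on all 3 Het-CKO arrays, which leaves out Ighv1-54 for its lost spot, lay below a level of 3 apart from Rabep2 and Myzap. In CTL, 9 of them were above background on 1 array or on none. Among these Olfr569, an olfactory receptor, had the largest change, with 0.318, 0.318 and 0.376 in CTL and 0.784, 0.777 and 0.599 in Het-CKO (log2 change 1.09, limma adjusted p = 0.0038). Wnk1, a kinase that controls ion cotransporters, was above background on no CTL array and rose to 0.662, 0.709 and 0.585, at least 1.71-fold (adjusted p = 0.0122). Wwox, an oxidoreductase known as a tumour suppressor, reached 0.719, 0.697 and 0.660 from 0.396, 0.318 and 0.454 (adjusted p = 0.00782). The brightest of the 15 were Rabep2 and Myzap. Myzap, a protein of the intercalated disc of cardiac muscle, rose from 2.59, 2.00 and 2.83 to 4.53, 3.72 and 4.29 (log2 change 0.77, adjusted p = 0.0472). Adra2a, the alpha 2A adrenergic receptor, stood at 1.53 and 1.40 in CTL, with 1 spot left out, and at 2.67, 2.02 and 2.94 in Het-CKO.

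Ndnf, a secreted neurotrophic factor, and Azgp1, a secreted glycoprotein, rose by 0.91 and 0.83 on the log2 scale with every CTL array above background. Zfp462, Mboat4, Taf4b, Fam3c, Esrp2, Olfr281 and Psg23 made up the rest, with changes of 0.77 to 0.90. Over all calls, 5 olfactory receptors were included, 4 of them higher. The olfactory receptor probes tested were not counted, so no share can be set beside the 0.590% called over all probes. Among brighter genes chosen after their values were seen, Rgs2, which ends signalling by Gq-coupled receptors, rose from 36.8, 27.6 and 32.0 to 47.7, 54.9 and 45.0 (log2 change 0.62, adjusted p = 0.0476), while Hom-CKO hearts read 24.4, 18.5 and 17.9, below both. Ppip5k2, an inositol pyrophosphate kinase, rose from 18.3, 12.4 and 18.3 to 26.8, 23.9 and 29.8 (adjusted p = 0.0345).

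**Figure D4:**
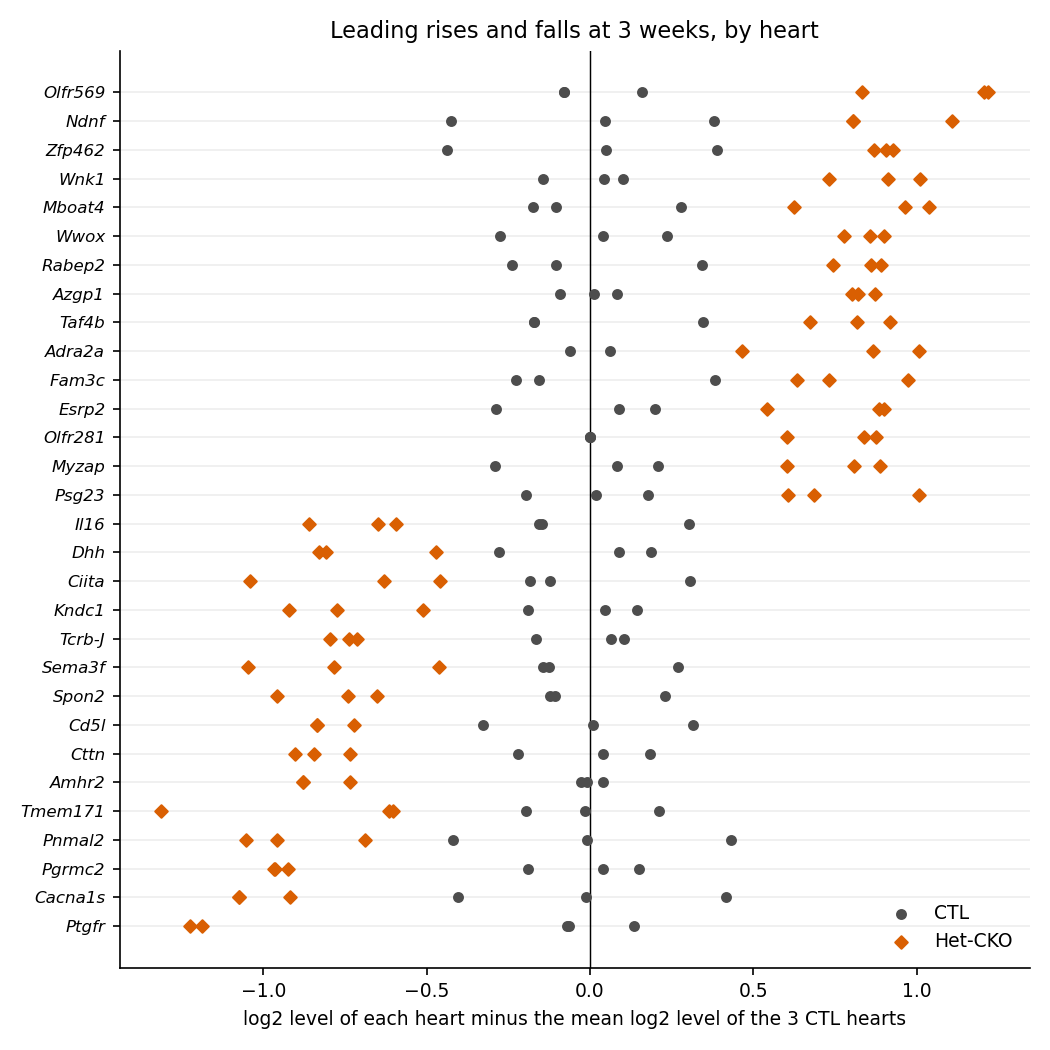
Each heart's log2 level minus the mean log2 level of the 3 CTL hearts (horizontal axis) for the 15 largest rises and 15 largest falls with a gene symbol that were read above background in all 3 hearts of the group where they were higher (Ighv1-54, Cask and Sphk1 do not meet this), CTL as grey circles and Het-CKO as orange diamonds. Probes were chosen so that the groups do not overlap, and their log2 changes were between 0.70 and 1.21 in size.

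The 2-week hearts gave a second comparison of the same genotypes in other animals. There Xist was high in all 6 hearts (15.9 to 19.3), so that sex was matched, while the Het-CKO arrays were again brighter, with median raw intensities of 51.8 to 57.0 against 37.9 to 48.3. At that age 391 of 26576 probes were higher (1.47%) and 45 were lower (0.169%). Of the 67 probes that rose at 3 weeks, 16 also rose at 2 weeks and 50 had a log2 change above 0, against 45.4% of all probes. Of the 89 falls that could be tested at 2 weeks, 3 also fell and 74 were below 0. Those 19 probes were 12.1% of the 3-week calls and 4.36% of the 2-week calls, and no probe was called in opposite directions.

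The genes called at both ages included several at readable levels. Rabep2, a partner of Rab GTPases on early endosomes, read 11.4, 10.3 and 15.5 in CTL and 20.5, 22.6 and 22.2 in Het-CKO at 3 weeks (log2 change 0.83, limma adjusted p = 0.0411), and 9.30, 9.97 and 12.8 against 25.2, 23.3 and 26.1 at 2 weeks (1.23, adjusted p = 0.00318). Pi4kb, a lipid kinase of the Golgi, read 14.6, 13.1 and 16.6 against 22.7, 26.1 and 23.7, and at 2 weeks 14.0, 13.7 and 16.2 against 21.9, 24.3 and 27.5. The ranges did not overlap at either age. Grik5, a kainate-type glutamate receptor subunit, changed by 0.74 and 0.88, Asnsd1 by 0.48 and 0.54, Gpr65, a proton-sensing receptor, by 0.48 and 0.52, and Alcam, a cell adhesion molecule, by 0.48 and 0.42.

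Of the 3 probes that fell at both ages, Sphk1, which makes sphingosine 1-phosphate, went from 0.551, 0.538 and 0.591 to 0.318, 0.318 and 0.362 at 3 weeks and from 0.511, 0.480 and 0.475 to 0.319, 0.334 and 0.380 at 2 weeks. It stood at 0.868 in the 1 Hom-CKO heart at 3 weeks with a value. Ythdc1, a nuclear reader of N6-methyladenosine in RNA, fell by 0.47 and 0.54 on the log2 scale. The leading falls of 3 weeks did not pass at 2 weeks: Cacna1s changed by -0.33 (adjusted p = 0.299), Ptgfr by -0.62 (0.132) and Asb14 by -0.25 (0.275). A test of the difference between the ages did not separate them either (adjusted p = 0.322, 0.558 and 0.608), and over all genes it called 2 of 26563 probes, or 0.00753%.

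**Figure D5:**
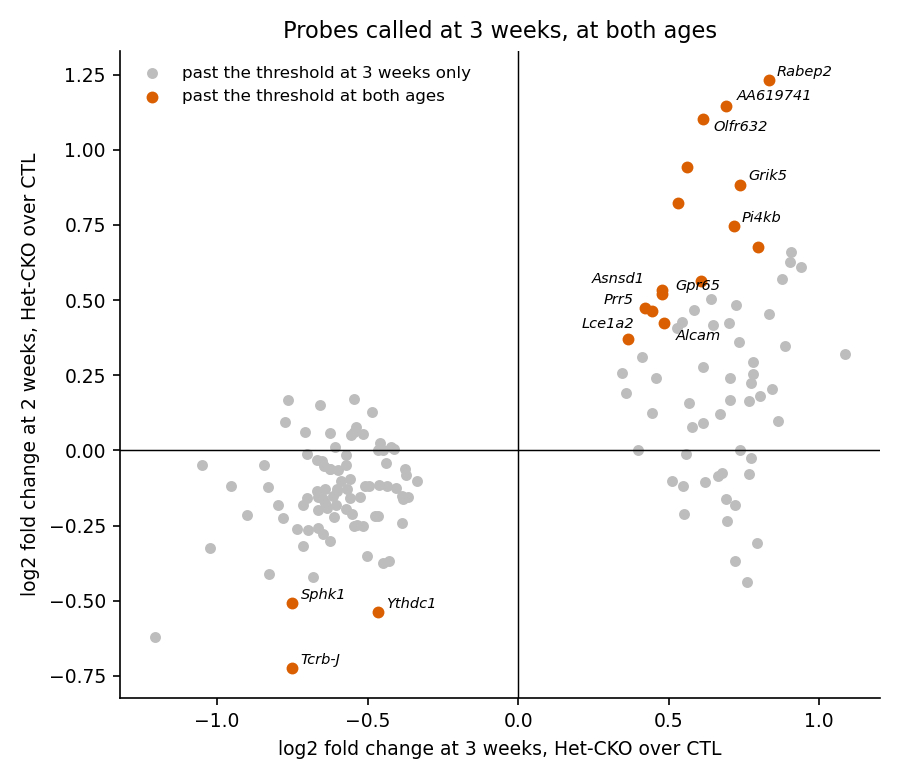
Log2 fold change of Het-CKO over CTL at 2 weeks (vertical axis) against that at 3 weeks (horizontal axis) for probes called at 3 weeks, Ighv1-54 left off for its size. Orange points passed the test at both ages, grey ones at 3 weeks only. Of the rises 50 of 67 lie above 0 at 2 weeks, and of the falls 74 of 89 lie below.

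Of 7 named genes called at both ages with a mean level of at least 10 in Het-CKO, 5 had a promoter in the RefSeq set (GRCm38.p6, 250 bases before to 50 after the start). They were chosen because they passed at both ages. Their promoters were searched on both strands for the GC box GGGCGG, a motif of SP1-family factors. It was present in 4 of the 5 (not in Gpr65) and in 35.7% of 32851 mouse promoters. The latter were not limited to genes read in the heart, and 5 promoters are few. Whether SP1-family factors bear on these genes was not tested. The 30 bases around the match nearest the start are shown with the match in capitals (CCGCCC where it lies on the other strand), read on the gene's strand.
Rabep2, chr7:126428746-126428775, plus strand: ggaagggcggccGGGCGGagggaaggagga
Pi4kb, chr3:94974683-94974712, plus strand: aaaagctcttccCCGCCCccttttcctttc
Grik5, chr7:25072415-25072444, minus strand: ggctaggggaggGGGCGGgggccctttcct
Alcam, chr16:52453074-52453103, minus strand: gccgaggaagctGGGCGGgagagaggagcg

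Metabolic and stress lists gave no further calls in limma, with 1 to 9 genes of each at an unadjusted p under 0.05. This ran from 2 of 60 oxidative phosphorylation genes to 4 of 18 clock genes and 9 of 38 p53 targets, against 16.5% of all tested probes. The 30 fatty acid oxidation genes had a median of -0.01, the 36 genes of glycolysis and glycogen one of -0.06 and the 60 of oxidative phosphorylation one of 0.01. These moved with the scaling, and after median scaling all 60 of the latter lay below 0 (median -0.30, 7 called lower). Over the alternatives the lowest median was -0.32 for both fatty acid oxidation and glycolysis, each with up to 6 genes called lower. For glycolysis up to 2 were called higher. In the main fit no call was made among 38 p53 and DNA damage targets (median -0.02) or 19 genes of the integrated stress response (-0.16). The same was true of 31 chaperones (-0.04), 42 cell cycle genes (-0.05) and 39 matrix genes (0.03). Nor was any of 18 clock genes (0.07) or 26 immediate early genes (0.08) called. Over the alternatives up to 3 p53 targets were called higher and up to 3 lower, with up to 2 each way for clock genes. Cdkn1a, the cell cycle inhibitor p21, read 6.13, 4.09 and 3.38 in CTL and 7.15, 6.02 and 6.67 in Het-CKO (adjusted p = 0.102), with overlapping hearts. Hspa8, a constitutive chaperone, read 0.5, 0.318 and 0.513 against 0.691, 0.527 and 0.819 (adjusted p = 0.13). Ttll1, a tubulin glutamylase, was at 13.8, 16.3 and 15.6 against 12.5, 14.0 and 11.6 (adjusted p = 0.248), and Syn2, synapsin II, at 5.34, 5.58 and 5.81 against 5.59, 5.98 and 6.53.

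Interferon response genes lay lower in Het-CKO as a list without any single call. Of 29 tested, 27 had a log2 change below 0, with a median of -0.34 at 3 weeks and -0.29 at 2 weeks. In limma 6 of the 29 had an unadjusted p under 0.05, against 16.5% of all tested probes. The lowest limma adjusted p was 0.0611 (Tap1, a peptide transporter). The median was below 0 in every alternative setting, from -0.50 without Het-CKO replicate 2 to -0.13 with the brightness covariate. It was -0.14 without Het-CKO replicate 3, -0.16 with normexp and -0.30 over the 15 genes above background on all arrays. A median below 0 in every alternative was not particular to this list. SOCS-box receptors (highest median -0.09), proteasome subunits (-0.07) and the integrated stress response (-0.08) had it as well. So had NRF2 targets, autophagy and vesicle trafficking genes, and endothelial, macrophage and B cell markers. Erythroid markers (-0.16, 3 genes) and neuron and Schwann cell markers (-0.18, 4 genes) stayed farther below 0 than the interferon list. Ifi44 read 1.01, 0.770 and 0.740 in CTL and 0.318, 0.997 and 0.336 in Het-CKO. Ifit1, an RNA sensor, read 1.57 and 2.03 against 0.690, 2.52 and 0.938. Het-CKO replicate 2 was thus as high as the controls at both.

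Markers of the cell types of the ventricle gave no call in limma. At an unadjusted p under 0.05 stood 2 of 3 erythroid genes and 2 of 4 neuron and Schwann cell genes. Each other list had 0 or 1, and the share over all tested probes was 16.5%. Ventricular cardiomyocyte markers had a median of 0.10 (8 tested) and a summed level of 1929 to 2041 in CTL and 1894 to 2079 in Het-CKO, with Myl2, ventricular myosin light chain 2, at 431, 443 and 504 against 399, 443 and 411. Fibroblast markers had a median of 0.07, endothelial ones -0.08, smooth muscle and pericyte ones 0.21, macrophage and myeloid ones -0.14, T cell ones -0.08, and neuron and Schwann cell ones -0.24. Erythroid markers lay lower in all 3 genes tested (median -0.33), with summed levels of 39.7 to 48.2 in CTL and 29.2 to 32.6 in Het-CKO. In RNA from whole tissue, fewer cells of a type and less RNA per cell cannot be told apart. Atrial markers varied between hearts of 1 group: Myl7, atrial myosin light chain 2, read 53.5, 8.01 and 3.06 in CTL and 26.2, 20.1 and 32.0 in Het-CKO. Sln, sarcolipin, followed it, with 18.8, 1.69 and 0.923 against 6.39, 4.55 and 10.7. How this part of the tissue bears on the calls was not tested.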

How the data were processed

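Ventricular RNA was hybridised as biotin-labelled cRNA to 1-colour CodeLink Whole Mouse Genome arrays. The deposited files hold, per the file headers, spot intensity after local background subtraction by CodeLink Expression Analysis; the authors' methods name quantile normalization and a t-test. From the raw intensity of 34967 discovery probes on 18 arrays, spots flagged contaminated, irregular or masked were left out. Values were quantile normalized, divided by the median, floored at 0.318 (the median over arrays of the 1st percentile of signals above background) and taken to log2. Probes above background on all arrays of a group were kept (26606), and 6 groups were fitted in limma 3.58.1 (R 4.3.3) with empirical Bayes and Benjamini-Hochberg adjustment over all probes. List members and the fixed set of genes are given at their brightest tested probe where they have several. The largest rises and falls, the genes called at both ages and those chosen after their values were seen are given at the called probe. For these genes it was not checked whether a brighter probe exists. Symbols came from the platform annotation and RefSeq; 5202 probes had none and 681 several. The named genes were Cops8 and signalosome genes, the 15 largest rises and falls that passed, were above background in the higher group and did not overlap, up to 3 calls per list (without calls, the 2 largest changes and 2 highest levels), a fixed set of cardiac, sex-linked and study-named genes, and immunoglobulin segments. Members and lists were chosen with earlier results of these data known. On simulated data of 26606 probes for the 3-week comparison, 84% of log2 shifts of 1 and 33% of shifts of 0.5 were recovered with 6 false calls. The simulated noise was independent between probes, with no difference in brightness or sex between the groups. These figures therefore do not tell how many of the calls in the real data are false. The 3 arrays per group limit the precision. Alternatives covered scaling, background, floor, filter, flags, test, prior, covariates and left-out hearts. A slide or scan block was not run because each array had its own. Same-numbered hearts at 3 weeks had deviations that correlated at 0.330, 0.0663 and -0.233, and the numbers were not taken as pairs.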

Additional observations from a re-analysis of the deposited data

Results flagged for a closer look

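2 probes changed between Het-CKO and CTL by different amounts at the 2 ages, by limma's test of the difference. Uts2r, the urotensin II receptor, had a difference of -1.08 on the log2 scale (3 weeks minus 2 weeks, adjusted p = 0.0145): it read 0.947, 0.793 and 0.982 in Het-CKO against 1.11, 1.21 and 1.20 in CTL at 3 weeks, and 1.10, 1.26 and 1.18 against 0.700, 0.688 and 0.775 at 2 weeks. Pbx3, a homeobox gene, had a difference of -0.78 (adjusted p = 0.0101). It was near background on all 6 arrays at 3 weeks and in CTL at 2 weeks, and read 0.537, 0.561 and 0.558 in Het-CKO at 2 weeks. Groups of 3 hearts were too small to test single hearts as outliers.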

How the results depend on the processing

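The count of 157 probes at 3 weeks became 1860 after median scaling, 1326 in the series value table, 299 with the floor at the 5th percentile, 104 with a trended robust prior and 89 among probes above background on all arrays. It became 2 with 3-week arrays alone, 0 with the 6 arrays alone (2792 at an unadjusted p under 0.05 in limma), 1 with the methods' t-test (2022 unadjusted) and 1 with the brightness covariate. Leaving out 1 heart gave 20 to 786: 786 without CTL replicate 3, 457 without Het-CKO replicate 2, 34 without CTL replicate 2, 29 without Het-CKO replicate 1 and 20 without Het-CKO replicate 3. The other settings stayed within 1.5 times, and the replicate number as a block gave 151. Of the 157 calls, 144 remained after median scaling, 90 with the Xist covariate and 1 with the brightness covariate, 17 in at least 15 of 21 alternatives and none in all. Ighv1-54 was called in 18 of the 20 that gave it a value, with a log2 change of 4.43 to 6.87 (adjusted p of 5.23e-12 to 0.213, the latter in the t-test, and 0.0742 with 6 arrays). No gene named as called turned its direction in an alternative where it was tested. At 2 weeks 436 probes became 203 after median scaling (159 higher, 44 lower, against 391 and 45), 13 with the t-test and 410 with the block. With the brightness covariate, added after seeing the data, it was 155 (137 higher, 18 lower). The 2 probes that differed between ages became 4 after cyclic loess, 4 with the higher floor, 5 without a filter, 1 with the block, 1 with the Xist covariate, 1 to 8 with 1 heart left out (also added; 8 without CTL replicate 3, 7 without Het-CKO replicate 2, 1 without CTL replicate 2), and 0 with normexp (2490 unadjusted), the all-array filter (1326) or the robust prior (2399). The causes were not tested. The brightness of the arrays did not overlap between the genotypes at 3 weeks, and signals near the floor of 0.318 give no order.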
